A study of Mus musculus with 4 samples.

Results

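Haematopoietic growth factor receptors were followed across the dendritic cells and neighbouring leukocytes of the mouse liver. The genes were chosen by their function, with earlier results of these data known: Flt3, Kit, Csf1r, Csf2ra, Csf2rb, Csf2rb2, Csf3r and Il7r, which are 8 of the 32285 genes in the files. For each gene the RNA row was read in both RNA matrices, and open chromatin was read in the peaks lying within 10 kb of its start sites. All 8 genes were found, and 41 regions that were peaks in both libraries lay in their windows, of 127216 such shared regions in all.

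The liver cells came from C57BL/6J mice, male and 6 to 12 weeks old by the study's methods, and were sorted as alive CD45+ CD64- CD11c+ cells. Control mice (D0) had received no DDC, and the D5 mice had been fed chow with 0.1% DDC (3,5-diethoxycarbonyl-1,4-dihydrocollidine), an agent that injures bile ducts, for 5 days; no transgene or deletion is named for either group. Nuclei were profiled by 10x Multiome, which reads RNA and transposase-accessible chromatin (ATAC) from the same nucleus, with 1 library per day and no stated number of mice in it. With 1 library per day there are no replicates, no p-value is given, each 95% interval covers counting error only, and the effect of the diet cannot be told apart from any other difference between the 2 libraries.

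These receptors carry the signals by which blood cells are made and maintained. Flt3, Kit and Csf1r are related receptor tyrosine kinases for Flt3 ligand, stem cell factor and, for Csf1r, both colony-stimulating factor 1 and interleukin-34. Csf2ra pairs with the shared beta chain Csf2rb to bind granulocyte-macrophage colony-stimulating factor (GM-CSF), the mouse-specific copy Csf2rb2 serves interleukin-3, Csf3r binds granulocyte colony-stimulating factor, and Il7r is the alpha chain for interleukin-7 and thymic stromal lymphopoietin. Flt3 signalling is the main driver of dendritic cell development, and Flt3 is kept by mature dendritic cells of every lineage, whereas Csf1r and Csf3r are best known from macrophages and neutrophils.

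The D0 library held 44496348 UMIs (unique molecular identifiers, each standing for a captured RNA molecule) in 16260 called barcodes, and the D5 library 94374499 in 27873. After filters 10977 and 19812 nuclei remained. Classes were named from marker genes and carry the ending "-like". Kept nuclei (D0 and D5) were cDC1-like in 1759 and 3173 cases, cDC2-like in 2096 and 5968, preDC-like in 214 and 1497, Ccr7+ DC-like (mature dendritic cells) in 302 and 967, and pDC-like (plasmacytoid) in 2326 and 2028. The other classes were macrophage-like (742 and 1246), NK cell-like (1434 and 1100), T cell-like (341 and 430), nonclassical monocyte-like (107 and 166) and neutrophil-like (6 and 91). A small endothelial-like class (32 and 2) was named too and is left out of the levels below. The 6 neutrophil-like nuclei of D0, with 10093 UMIs in all, are left aside where classes are put in order. Nuclei with macrophage markers were present although the sort excluded CD64+ cells, and lymphocyte-like nuclei although it required CD11c. Within the cDC2-like nuclei, 1084 and 3303 fell into 2 subclusters with 3 and 4 of 6 Clec10a+ markers raised, called Clec10a+ cDC2-like here for those markers alone. Neither subcluster held a Clec10a+ marker among its 10 leading genes. Those of the subcluster with 829 and 1609 nuclei included the Ccr7+ DC markers Ccl22, Ccr7 and Il4i1, so the members are also given without it, and those of the other (255 and 1694 nuclei) were led by Tnfsf9, Nupr1 and Ier3. The preDC-like cluster had 6 of 6 preDC markers raised over cDC2-like nuclei, among them Ly6c2 (9.13-fold) and Tcf4 (9.58-fold). Another 1618 and 3144 kept nuclei stayed unnamed. Of 12 cDC2 markers, the clusters that make up the cDC2-like class had 4 (4445 nuclei), 8 (2932) and 4 (687) raised. The largest unnamed cluster, led by Il1r2 and Dab2 (315 and 2541 nuclei), had 1 of these 12 raised. It is not part of the cDC2-like comparisons between the days. RNA released from broken cells was read in the barcodes with at most 100 UMIs. An estimated upper limit for its share in a class ran from 11.6% to 31.4% of UMIs. Each limit came from the UMIs of a single marker list of other cells and carries no interval for counting error. The lowest and the highest, both of neutrophil-like nuclei, rested on only 1 (D0) and 19 UMIs (D5). The level in these low-count barcodes is given beside the members. Statements below of the most that free RNA could bring to a class take the estimated share of that level.

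The start sites themselves lay in open chromatin, and sequence just before them is shown for the 5 genes whose accessibility or class pattern the results turn on. Each line gives the 250 bases upstream of the RefSeq gene start on the GRCm38.p6 assembly, 5′ to 3′ on the gene's strand: Flt3 at chr5:147400490-147400739 (minus strand), Kit at chr5:75574737-75574986 (plus), Csf2rb2 at chr15:78305722-78305971 (minus), Csf3r at chr4:126024409-126024658 (plus) and Il7r at chr15:9529877-9530126 (minus). Capitals mark GAGGAAG, a core of the kind bound by PU.1 (the product of Spi1), or its reverse complement. All 250 bases of each window lay inside a shared open region.
Flt3: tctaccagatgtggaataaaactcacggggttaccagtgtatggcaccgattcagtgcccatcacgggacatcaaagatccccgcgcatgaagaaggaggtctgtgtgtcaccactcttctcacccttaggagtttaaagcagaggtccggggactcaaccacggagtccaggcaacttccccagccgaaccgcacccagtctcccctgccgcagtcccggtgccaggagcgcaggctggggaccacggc
Kit: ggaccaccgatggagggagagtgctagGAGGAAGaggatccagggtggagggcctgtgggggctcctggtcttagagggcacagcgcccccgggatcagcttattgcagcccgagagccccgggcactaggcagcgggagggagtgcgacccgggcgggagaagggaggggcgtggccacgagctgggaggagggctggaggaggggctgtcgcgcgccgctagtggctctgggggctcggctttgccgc
Csf2rb2: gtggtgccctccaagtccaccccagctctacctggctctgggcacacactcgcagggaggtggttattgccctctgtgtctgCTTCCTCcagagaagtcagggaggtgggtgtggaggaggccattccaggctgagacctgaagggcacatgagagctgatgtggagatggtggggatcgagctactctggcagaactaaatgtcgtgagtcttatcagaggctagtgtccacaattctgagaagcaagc
Csf3r: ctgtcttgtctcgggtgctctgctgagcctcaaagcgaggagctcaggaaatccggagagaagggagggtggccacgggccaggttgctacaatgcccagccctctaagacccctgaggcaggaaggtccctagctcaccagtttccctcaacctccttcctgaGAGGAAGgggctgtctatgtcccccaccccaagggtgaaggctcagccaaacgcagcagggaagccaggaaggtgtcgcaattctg
Il7r: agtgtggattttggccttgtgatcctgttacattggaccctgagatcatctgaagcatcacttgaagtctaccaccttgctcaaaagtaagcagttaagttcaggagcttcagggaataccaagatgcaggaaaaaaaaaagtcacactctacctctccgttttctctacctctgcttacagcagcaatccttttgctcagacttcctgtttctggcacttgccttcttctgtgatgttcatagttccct

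A RefSeq promoter entry was matched for 6 of the 8 genes by symbol and read for these, Csf2ra included. GAGGAAG stood on either strand in 4 of those 6 (Csf2ra, Csf2rb2, Csf3r and Kit), against 10.6% of 32851 promoter windows of the same length. It began 14 bases before the start in Csf2ra, 86 in Csf3r, 168 in Csf2rb2 (on the opposite strand) and 223 in Kit. Flt3 and Il7r had no such letters in the window. TGTGGT, a core of Runx factors, stood in 0 of the 6 against 14.0% of all windows, and AGATAA, a core of Gata factors, in 0 of the 6 against 9.99%. Such matches describe the letters only, other forms of these cores were not searched, and no binding was measured.

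Flt3 RNA was found in every dendritic cell class and was highest in the mature nuclei. Levels are given as UMIs per 1000000 UMIs of a class (CPM). Ccr7+ DC-like nuclei held 498 CPM (446–554) at D0 and 479.8 (454–507) at D5. The preDC-like level was 374 (316–441) and 390.2 (371–409.9), and the cDC1-like level 360.1 (342–379) and 363 (352–375). At D0 the intervals of preDC-like and cDC1-like nuclei overlapped widely, and at D5 they overlapped at their edges, so these neighbours in the order could not be separated beyond counting error. Below them stood pDC-like nuclei (277 and 235) and cDC2-like nuclei (209 and 271), which changed places between the days. Macrophage-like nuclei held 54.9 and 97.9 CPM, nonclassical monocyte-like 62.5 and 70.9, T cell-like 39.2 and 64.5, and NK cell-like 32.2 and 65.1. Neutrophil-like nuclei at D5 held 150 CPM (100.7–215.9) from 29 UMIs, above the most that free RNA could bring to them (62.3). The low-count barcodes held 176 and 198 CPM of Flt3, of which free RNA could bring at most 36.3 and 37.8 CPM to NK cell-like and 34.3 and 38.7 to T cell-like nuclei. The lymphocyte-like intervals included these limits at D0 and lay above them at D5 (54.8–76.7 and 48.8–83.8).

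The share of nuclei with at least 1 Flt3 UMI followed the same order at D5 once every nucleus had been thinned to 1000 UMIs. At D0 it was 37.4% (31.9–43.1) in Ccr7+ DC-like nuclei, 31.4% (29.2–33.6) in cDC1-like and 27.6% (21.7–34.1) in preDC-like nuclei, so the last 2 stood in the other order with overlapping intervals. At D5 it was 35.6% in Ccr7+ DC-like nuclei, 31.9% (29.6–34.4) in preDC-like, 29.7% in cDC1-like, 23.1% in cDC2-like and 21.4% in pDC-like nuclei. In T cell-like nuclei, which should lack Flt3, it was 4.42% (2.68–6.81). Without thinning the preDC-like share was 60.7% at a median of 2452 UMIs and the T cell-like share 9.77% at a median of 1731.5. Within preDC-like nuclei at D5, Flt3 was found about as often with a Csf1r UMI (33.6%, 25.3–42.7, of 122 nuclei) as without one (31.8%, 29.3–34.3, of 1375). The same held for Csf2ra (31.2% with, 32.0% without) and for Kit (33.3% with, 31.8% without), so a difference in Flt3 with any of these 3 genes was not detectable at this depth.

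Kit, the receptor of stem cell factor, was highest in cDC1-like nuclei at D0, with 252 CPM (237–267), and stood there at 188 (180.2–197) at D5. At D5 the interval of Ccr7+ DC-like nuclei (169.7, 154–186) overlapped with it, as did that of an unnamed cluster led by Il1r2 and Dab2 (202, 191–212). At D0 Ccr7+ DC-like nuclei held 113 (89.2–142), and cDC2-like nuclei held 114 and 116. Lower levels were read in NK cell-like nuclei (51.4 and 93.9), preDC-like nuclei (38.7 and 74.5) and T cell-like nuclei (20.6 and 53.0). Levels were low on both days in pDC-like (26.4 and 25.4), macrophage-like (23.4 and 27.7) and nonclassical monocyte-like nuclei (13.9 and 22.4). Low-count barcodes held 58.5 and 50.8 CPM of Kit, above the pDC-like and macrophage-like levels, but free RNA could bring at most 9.42 to 13.4 CPM to these classes. A Kit UMI was found in 21.0% of thinned cDC1-like nuclei at D0 and 16.4% at D5.

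Csf1r, the receptor that maintains macrophages and many monocytes, was highest in the macrophage-like (428 CPM, 396–463, and 404, 383–425) and nonclassical monocyte-like nuclei (604, 484–745, and 399.5, 327–483). The intervals of these classes were apart at D0 and overlapped at D5. Among dendritic cells the order was cDC2-like (123 and 139.6), preDC-like (93.0 and 94.6), then Ccr7+ DC-like (34.3 and 44.1) and cDC1-like (38.5 and 43.6), whose intervals overlapped on both days, and last pDC-like (14.0 and 22.2). The low-count barcodes held 92.5 and 109 CPM, and cDC2-like nuclei were the only dendritic class above that level on both days. The preDC-like interval included it at D0 (65.1–129) and lay just under it at D5 (85.4–105). Free RNA could bring at most 15.9 and 18.4 CPM to preDC-like nuclei, which is below these intervals. The pDC-like levels were no higher than free RNA could bring (at most 15.4 and 28.8).

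The GM-CSF receptor was split unevenly between its chains. The binding chain Csf2ra was highest in macrophage-like nuclei (286 and 245 CPM) and nonclassical monocyte-like nuclei (257 and 205), followed by cDC2-like (207 and 167), cDC1-like (163 and 120.5), Ccr7+ DC-like (148 and 105) and preDC-like nuclei (67.1 and 93.1). Neutrophil-like nuclei at D5 held 166 CPM of Csf2ra, beside the 167 of cDC2-like nuclei. Csf2ra was low in pDC-like nuclei (40.1 and 46.2). The shared beta chain Csf2rb was instead highest in Ccr7+ DC-like nuclei at D0 (352, 308–399.5), where macrophage-like nuclei came next (240.2, 216–266); at D5 these stood at 272 (253–293) and 289.6 (273–308), with overlapping intervals. Neutrophil-like nuclei at D5 stood beside them with 285 CPM and a Csf2rb UMI in 33.0% (23.5–43.6) of 91 thinned nuclei. cDC1-like nuclei held 177 and 254 CPM, cDC2-like 173 and 187, pDC-like 216 and 191, and preDC-like 132 (98.1–173) and 128 (117–139). NK cell-like (22.7 and 28.4) and T cell-like nuclei (14.4 and 28.8) lay far under the low-count barcodes (110.3 and 124), with intervals that included the most that free RNA could bring, 21.5 to 24.2 CPM. pDC-like nuclei thus held the beta chain at a level like that of conventional dendritic cells while their Csf2ra was low, although above the most that free RNA could bring (23.3 and 36.2).

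Csf2rb2, the copy used by interleukin-3, followed the pDC-like nuclei. They held 193 CPM (179–207) at D0 and 157 (145–170.1) at D5. Ccr7+ DC-like nuclei followed with 118 (93.2–147) and 93.6 (82.3–106) and preDC-like nuclei with 114 (82.6–153) and 74.3 (66.1–83.1), neighbours whose intervals overlapped on both days. cDC2-like (35.2 and 33.2) and cDC1-like nuclei (28.9 and 31.6) lay under the low-count barcodes (86.3 and 48.2). These values lay above the most that free RNA could bring, 13.5 and 9.29 CPM in cDC2-like and 10.2 and 7.04 in cDC1-like nuclei. Csf2rb and Csf2rb2 are neighbouring, near-identical copies, so reads could be assigned to the wrong copy in either layer. As a value on this, thinned cDC2-like nuclei at D5 with a Csf2rb2 UMI held a Csf2rb UMI in 24.3% (18.6–30.7) of cases and those without in 15.8% (14.8–16.7). In cDC1-like nuclei the shares were 30.9% (22.4–40.4) and 19.8% (18.4–21.3), in pDC-like nuclei 17.5% (13.4–22.3) and 16.5% (14.7–18.3), and in preDC-like nuclei 15.8% (9.81–23.6) and 11.1% (9.50–12.9). Whether shared reads set these shares was not tested.

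Csf3r, the granulocyte colony-stimulating factor receptor, was the most restricted of the set in RNA. The 91 neutrophil-like nuclei at D5 held 539 CPM (441–653), from 104 UMIs, and the 6 such nuclei at D0 held 12 UMIs. Nonclassical monocyte-like nuclei held 55.6 and 97.1 CPM and macrophage-like nuclei 64.9 and 32.8. Every dendritic, NK cell-like and T cell-like class lay between 0 and 3.80 CPM, with 0 UMIs in the T cell-like nuclei at D5, where 3 UMIs would be 3.46 CPM. The low-count barcodes held 6.19 and 7.04 CPM.

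Il7r, used by lymphocytes and innate lymphoid cells, was highest in pDC-like nuclei, at 352 CPM (334–372) and 299 (282–317). NK cell-like nuclei (122, 108–139, and 168, 151–186) and Ccr7+ DC-like nuclei (115, 90.6–143, and 192, 175–209) came next with overlapping intervals on both days. preDC-like nuclei held 41.3 (23.6–67.1) and 74.3 (66.1–83.1), macrophage-like 32.1 and 51.5, cDC2-like 23.3 and 25.3, T cell-like 20.6 and 38.0, and cDC1-like only 8.17 and 6.31. The low-count barcodes held 52.3 CPM at D0 and 24.7 at D5, and the cDC1-like level lay below it on both days. After thinning, an Il7r UMI was found in 27.4% and 23.2% of pDC-like nuclei and in 0.569% and 0.599% of cDC1-like nuclei, whose median depth (2149 and 3082 UMIs) was above the pDC-like depth (1539 and 1737). The largest unnamed cluster, led by Il1r2 and Dab2 with 315 and 2541 nuclei, held 276 and 309 CPM of Flt3, 169 and 202 of Kit and 12.0 and 30.5 of Il7r.

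**Figure D1:**
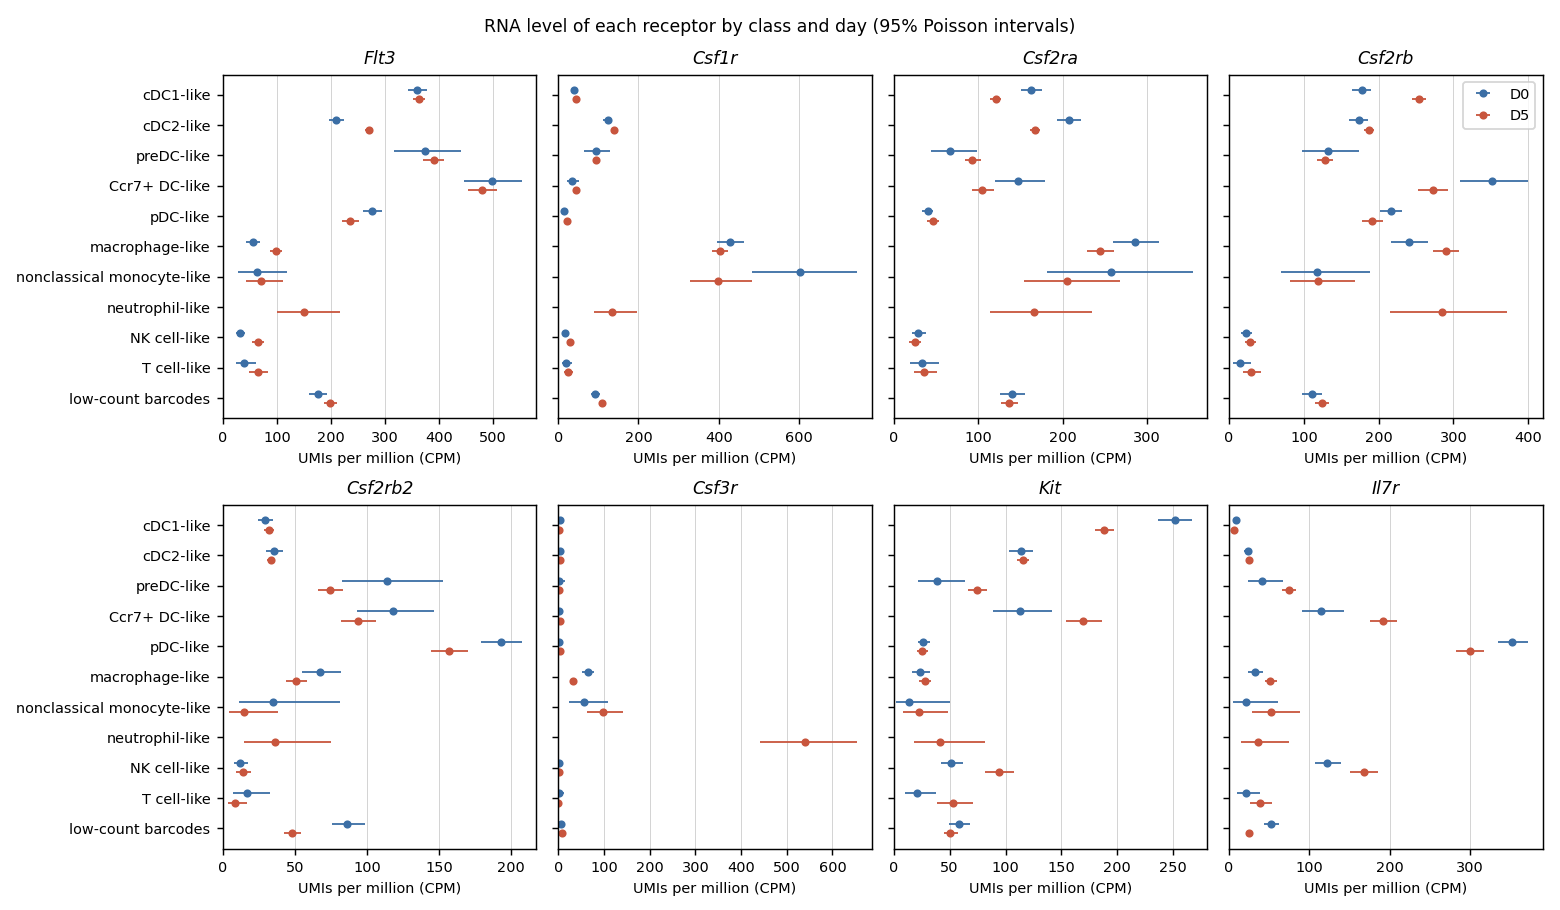
RNA level of each of the 8 receptors (x axis, CPM) in each class (rows), with blue points for D0, red points for D5 and bars for 95% Poisson intervals; the bottom row gives the low-count barcodes that stand for free RNA, and the 6 neutrophil-like nuclei of D0 are left out. Flt3 is spread over all dendritic classes, Kit is highest in cDC1-like nuclei at D0 (252 CPM), Csf1r in macrophage-like and nonclassical monocyte-like nuclei, Csf2rb2 and Il7r in pDC-like nuclei, and Csf3r in neutrophil-like nuclei at 539 CPM.

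The days were compared within each class to ask whether receptor RNA differed on the DDC diet. A receptor was counted as higher or lower when its CPM differed at least 1.5-fold and at least 50 UMIs were found over both groups. In cDC2-like nuclei 0 of 8 receptors passed in either direction, where 5.32% of 10966 genes were higher and 17.0% lower. Flt3 was 1.29-fold higher (log2 0.37, 0.27–0.48) and Csf2ra 1.24-fold lower (-0.31, -0.42 to -0.20). The other members lay between -0.18 and 0.19, and of these Csf2rb2 and Csf3r were lower by CPM but higher under TMM scaling (-0.08 against 0.21, and -0.18 against 0.12). The median over the members was 0.07, beside -0.16 over all genes. TMM scaling, which is set by a trimmed mean of gene ratios, moved every cDC2-like ratio up by 0.30 and took Flt3 past the line at 0.67. This shift was larger than the all-gene median of -0.16 would call for. Of the markers of other classes, 7 of 7 T cell markers (summed level 133 and 60.4 CPM), 6 of 7 NK cell (679 and 440), 6 of 10 cDC1 (1163 and 728) and 7 of 11 pDC markers (750 and 614, with 1 higher) were lower at D5. Hepatocyte markers were lower in 3 of 3 cases, and of 3 neutrophil markers 2 were higher and 1 lower. What part all these markers had in the receptor values was not tested.

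In cDC1-like nuclei 0 of the 7 receptors with 50 UMIs passed, where 3.39% of genes were higher and 18.8% lower. Csf2rb was nearest, 1.43-fold higher at D5 (log2 0.52, 0.40–0.64) with 177 and 254 CPM. Kit was 1.34-fold lower (-0.42, -0.53 to -0.31) and Csf2ra 1.35-fold lower (-0.44, -0.57 to -0.30), differences that shrank to -0.09 and -0.11 under TMM scaling, while Csf2rb grew to 0.85. Flt3 stood at 0.01 (-0.07 to 0.10). Lower at D5 were also 6 of 7 NK cell markers (610 and 434 CPM), 3 of 5 T cell markers (101 and 57.2) and 7 of 11 pDC markers (655 and 439, with 1 higher), while 4 of 7 Ccr7+ DC markers (154 and 291, with 1 lower) and 2 of 2 neutrophil markers (6.07 and 25.5) were higher. Of the class's own cDC1 markers 3 of 10 were lower (6335 and 4964). What part these markers had in the receptor values was not tested.

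In pDC-like nuclei 1 of 7 receptors was higher and none lower, where 4.97% and 8.25% of genes were. The receptor, Csf1r, was 1.59-fold higher (log2 0.67, 0.16–1.19), but it rested on 54 and 84 UMIs at levels no higher than free RNA could bring. Of the macrophage markers 4 of the 4 with 50 UMIs were also higher (summed level 91.8 and 153 CPM), as were 4 of 7 cDC2 markers (588 and 706), 3 of 6 Clec10a+ markers (482 and 708) and 2 of 2 neutrophil markers (8.79 and 43.3), while 4 of 5 NK cell markers (582 and 372) and 3 of 6 T cell markers (171 and 116) were lower. Nonclassical monocyte and Ccr7+ DC markers were each higher in 2 of 6 cases. The part of these markers in the Csf1r value was not tested. The receptors that stood out in this class were slightly lower at D5: Flt3 at -0.23 (-0.36 to -0.10), Csf2rb2 at -0.30 (-0.46 to -0.14) and Il7r at -0.24 (-0.35 to -0.12), none of them past 1.5-fold. Kit was at -0.06 by CPM and 0.10 under TMM scaling.

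Ccr7+ DC-like nuclei had 1 of 7 receptors higher and none lower, where 10.9% and 12.7% of genes were. Il7r was 1.67-fold higher (log2 0.74, 0.39–1.11), from 115 to 192 CPM. Kit stood just under the 1.5-fold line (0.58, 0.23–0.95), and neither Csf2ra (-0.49, -0.83 to -0.14) nor Csf2rb (-0.37, -0.58 to -0.15) passed it. Flt3 was at -0.05 by CPM and 0.10 under TMM scaling. Of the cDC2 markers with 50 UMIs 5 of 9 were higher and 2 lower in these nuclei (summed level 472 and 528 CPM), and 3 of 6 Clec10a+ markers were higher and 1 lower (1268 and 1563). The class's own Ccr7+ DC markers were lower in 4 of 11 cases (8043 and 5878), and so were 3 of 8 pDC (849 and 880), 3 of 4 NK cell (717 and 483), 3 of 3 T cell (185 and 76.1) and 2 of 5 cDC1 markers (641 and 425). Their part in the values of these receptors and of Crlf2, a pathway gene, was not tested.

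In preDC-like nuclei 2 of 7 receptors were higher and 1 lower, where 11.3% and 18.1% of genes were. Kit was 1.92-fold higher (log2 0.94, 0.20–1.80; 15 and 304 UMIs) and Il7r 1.80-fold higher (0.85, 0.12–1.67; 16 and 303 UMIs). Csf2rb2 was 1.53-fold lower (-0.61, -1.07 to -0.12), and Flt3 was at 0.06 (-0.19 to 0.31). Under TMM scaling 3 receptors were higher and none lower, since Csf2ra passed (0.75) and Csf2rb2 did not (-0.34). No share of all genes was taken under that scaling. In nuclei with at least 2000 UMIs Csf2rb2 was at 0.10. The markers of pDC moved with this comparison: all 11 were found, 10 were lower and 1 higher at D5, and their summed level was 6665 CPM at D0 and 3875 at D5, against 14637 and 14007 in pDC-like nuclei. Of the cDC2 markers 4 of 9 were higher and none lower. The class's own preDC markers were lower in 4 of 6 cases. Also higher were 2 of 2 macrophage, 2 of 2 neutrophil and 2 of 5 nonclassical monocyte markers. Lower were 2 of 2 T cell, 2 of 4 NK cell, 2 of 5 cDC1 and 2 of 2 endothelial markers. The part of these shifts in the receptor values was not tested.

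Macrophage-like nuclei had 2 of 8 receptors higher and 1 lower at D5, where 4.82% and 18.9% of genes were. Flt3 was 1.78-fold higher (log2 0.84, 0.49–1.20), Il7r 1.60-fold higher (0.68, 0.22–1.17) and Csf3r 1.98-fold lower (-0.98, -1.38 to -0.58), while Csf1r was at -0.09 by CPM and 0.22 under TMM scaling. Both Flt3 values, 54.9 and 97.9 CPM, lay above the most that free RNA could bring (28.4 and 41.7), and in nuclei with at least 2000 UMIs Flt3 did not pass (0.43). The macrophage markers summed to 3462 CPM at D0 and 5686 at D5, with 3 of 9 higher and 1 lower. Of the cDC2 markers 4 of 11 were higher and 1 lower (1663 and 1674 CPM), of the pDC markers 5 of 10 were lower (716 and 660), and of the cDC1 markers 4 of 7 (1135 and 787). Lower were also 4 of 4 T cell, 4 of 5 NK cell and 3 of 6 preDC markers. Of the neutrophil markers 2 of 2 and of the Clec10a+ markers 2 of 6 were higher, and of 5 Ccr7+ DC markers 1 was higher and 2 lower. The part of these markers in the receptor values was not tested.

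NK cell-like nuclei had 3 of 7 receptors higher and none lower, where 5.44% and 13.9% of genes were. Flt3 was 2.02-fold higher (log2 1.01, 0.58–1.46), Kit 1.83-fold (0.87, 0.52–1.23) and Csf1r 1.58-fold (0.66, 0.04–1.31). The D0 levels of Flt3 and Csf1r were no higher than free RNA could bring (36.3 and 19.1 CPM), and those of D5 were above it (37.8 and 20.8), as was Kit on both days (12.1 and 9.70). In nuclei with at least 2000 UMIs 0 receptors passed, with Kit at 0.15 and Flt3 at 0.53. Il7r was at 0.45 (0.22–0.69). Among other cell types, 3 of 7 cDC2 markers with 50 UMIs were higher, with summed levels of 243 and 341 CPM, and 4 of 7 Ccr7+ DC markers were higher and 1 lower (205 and 324). The cDC1 markers were lower in 4 of 8 cases (395 and 260), the pDC markers in 6 of 10 (599 and 423) and the T cell markers in 4 of 9 (2042 and 1764). Of the markers of innate lymphoid cells, 1 of 7 for type 2 and 1 of 6 for type 3 had 50 UMIs and neither passed, the latter, Tmem176a, with 111 and 162 CPM. Of the others, Il22 and Il17a, cytokines of type 3 cells, had 0 UMIs on both days, Il13, a cytokine of type 2 cells, had 0 and 6, and Calca, a type 2 marker, had 22 and 26. No marker list for type 1 innate lymphoid cells was used, so the NK cell-like nuclei were not told apart from such cells. The part of these markers in the receptor values was not tested.

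T cell-like nuclei had 2 of 2 receptors higher, where 7.45% of 4656 genes were higher and 14.7% lower. Kit stood at 20.6 CPM (10 UMIs) at D0 and 53.0 (46 UMIs) at D5, a log2 ratio of 1.36 (0.36–2.51), and Flt3 at 39.2 (19 UMIs) and 64.5 (56 UMIs), a ratio of 0.72 whose interval included 0 (-0.05 to 1.55). In nuclei with at least 2000 UMIs, after thinning and after subtraction of free RNA the count was 0, and in the first of these both had under 50 UMIs. Of the markers, 1 of 2 for cDC2 (246 and 345 CPM) and 2 of 4 for Clec10a+ (493 and 692) were higher, and 2 of 4 for pDC (555 and 358) and 2 of 10 for T cells (4762 and 4485) lower. Of the type 3 innate lymphoid markers 1 of 1 was higher. Lower were 1 of 7 NK cell, 1 of 2 nonclassical monocyte and 1 of 5 preDC markers. In nonclassical monocyte-like nuclei 0 of 2 receptors were higher and 1 lower, where 11.7% and 14.3% of 1681 genes were: Csf1r was 1.51-fold lower (log2 -0.60, -1.02 to -0.17; 87 and 107 UMIs), and at -0.35 under TMM scaling it did not pass. Of this class's own markers 1 of 6 was lower (5277 and 3917 CPM). In both classes the part of the markers was not tested.

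**Figure D2:**
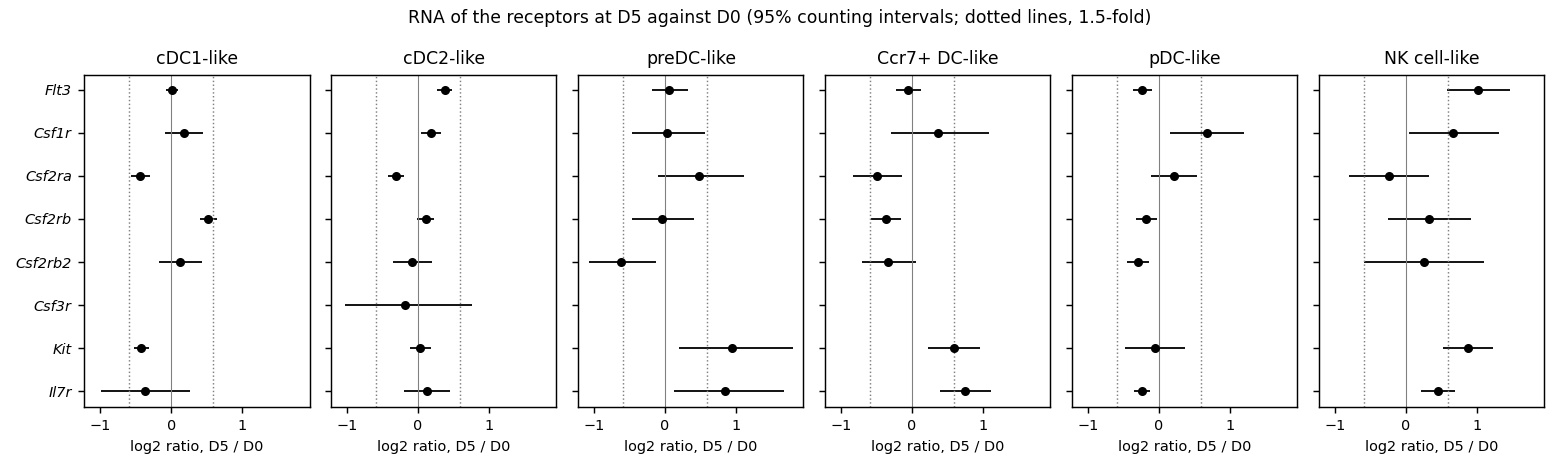
Log2 ratio of RNA level at D5 over D0 for the 8 receptors (rows) in 6 classes (panels), with bars for 95% counting intervals and dotted lines at 1.5-fold; members with under 50 UMIs are not drawn. Points in cDC1-like and cDC2-like nuclei lie inside the dotted lines, Kit and Il7r lie to the right in preDC-like nuclei (0.94 and 0.85), and Flt3 and Kit do so in NK cell-like nuclei (1.01 and 0.87).

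The preDC-like nuclei were set against the Clec10a+ cDC2-like nuclei of the same library, a comparison made within 1 library. At D5, 3 of 7 receptors were higher and 2 lower in preDC-like nuclei, where 28.8% and 8.38% of 10006 genes were. Il7r was 2.49-fold higher (log2 1.31, 1.08–1.55; 74.3 against 29.9 CPM), Csf2rb2 2.17-fold (1.12, 0.89–1.35; 74.3 against 34.2) and Flt3 1.54-fold (0.62, 0.53–0.72; 390.2 against 253). Csf2ra was 1.75-fold lower (-0.80, -0.97 to -0.64; 93.1 against 163) and Csf2rb 1.57-fold lower (-0.65, -0.79 to -0.51; 128 against 200.4). Csf1r (-0.48, -0.64 to -0.31) and Kit (-0.44, -0.63 to -0.26) did not pass. The median over the members was -0.44, beside 0.31 over all genes. TMM scaling moved all ratios down by 0.35, which gave 2 receptors higher and 4 lower, with Flt3 at 0.28, Csf1r at -0.82 and Kit at -0.79. Without the subcluster led by Ccl22, 4 receptors passed: Il7r (2.37), Csf2rb2 (1.503) and Flt3 (0.64) were higher and Csf2ra (-0.89) lower, while Csf2rb did not pass (-0.53) and Kit turned to 0.45. The share of all genes was not taken under TMM scaling or without this subcluster, so these counts have no share to be read against.

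At D0 the same 3 receptors were higher, and Kit joined Csf2ra and Csf2rb among those lower, where 32.3% and 14.5% of genes were. Csf2rb2 was 2.88-fold higher (log2 1.52, 0.97–2.06) and Flt3 2.02-fold (1.02, 0.73–1.29), whereas Il7r rested on 16 preDC-like UMIs (0.61, -0.28 to 1.42). Csf2ra was 2.83-fold lower (-1.50, -2.13 to -0.93), Kit 2.25-fold (-1.17, -2.03 to -0.41) and Csf2rb 1.53-fold (-0.62, -1.06 to -0.20). Under TMM scaling 1 receptor was higher, Csf2rb2 (1.06), and 4 were lower, Csf1r among them (-0.84), with Flt3 at 0.55 and Il7r at 0.15. Without the subcluster led by Ccl22, 3 passed, Csf2rb2 (1.89) and Flt3 (0.92) on the higher side and Csf2ra (-1.37) on the lower, while Kit and Il7r had under 50 UMIs and were not counted. These counts under TMM scaling and without the subcluster, too, have no share of all genes beside them. In nuclei with at least 2000 UMIs Il7r was at -0.40. pDC markers moved with both comparisons. At D5 9 of 11 were higher in preDC-like nuclei (summed level 3875 against 606 CPM), Siglech among them at 158 against 30.4, and at D0 7 of the 9 with 50 UMIs (6665 against 739). The median depth of preDC-like nuclei (1716 and 2452 UMIs) lay between those of Clec10a+ cDC2-like (1905 and 2755) and pDC-like nuclei (1539 and 1737). Siglech, Runx2 and Tcf4 stand in both the pDC and the preDC marker lists. cDC2 markers were lower in 8 of 11 and 8 of 9, and Ccr7+ DC markers in 3 of 6 (296 against 641 CPM) and 3 of 4 (204 against 826). Macrophage markers were lower in 4 of 7 at D5 and 3 of 3 at D0. Classical monocyte markers were higher in 1 of 4 and 2 of 2. Of the nonclassical monocyte markers 3 of 6 were higher and 3 lower at D5, and 2 of 5 were higher and 3 lower at D0. Doublets of a pDC with another cell were not told apart from these nuclei: by their doublet scores 11.6% and 24.2% of preDC-like nuclei had been removed at D0 and D5, beside 4.07% and 21.7% of Clec10a+ cDC2-like and 11.6% and 18.4% of pDC-like nuclei. The part of these shifts, of doublets and of free RNA in the receptor values was not tested.

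Against the pDC-like nuclei of D5 the preDC-like nuclei had 4 of 7 receptors higher and 2 lower, where 20.1% and 23.5% of genes were. Csf1r was 4.26-fold higher (log2 2.09, 1.75–2.45), Kit 2.94-fold (1.55, 1.22–1.90), Csf2ra 2.01-fold (1.01, 0.75–1.28) and Flt3 1.66-fold (0.73, 0.61–0.85). The pDC-like Csf1r levels were no higher than free RNA could bring (at most 15.4 CPM at D0 and 28.8 at D5). The size of the Csf1r ratios is therefore not settled on either day. Il7r was 4.03-fold lower (-2.01, -2.20 to -1.83) and Csf2rb2 2.11-fold lower (-1.08, -1.28 to -0.88). With doublets kept, the log2 ratio of Csf1r was 1.02 and that of Kit 0.99, both still past 1.5-fold. At D0 2 receptors were higher, Csf1r (2.73) and Csf2ra (0.74), and 3 lower, Il7r (-3.09), Csf2rb2 (-0.76) and Csf2rb (-0.71), where 21.3% and 25.8% of genes were. Flt3 (0.44, 0.18–0.69) and Kit (0.55, -0.33 to 1.34) did not pass there. In CPM at D5 the preDC-like nuclei lay between Clec10a+ cDC2-like and pDC-like nuclei for Csf1r, Csf2ra, Kit, Csf2rb2 and Il7r, above both for Flt3, and below both for Csf2rb (128 CPM against 200.4 and 191). Without the subcluster led by Ccl22, Kit did not lie between them. Of the pDC markers 11 of 11 were lower in preDC-like than in pDC-like nuclei on both days (3875 against 14007 CPM at D5, 6665 against 14637 at D0). At D5 7 of 10 cDC2 markers were higher and 1 lower (1258 against 706), 5 of 6 Clec10a+ markers were higher (1509 against 708) and 5 of 8 cDC1 markers lower (543 against 852). Nonclassical monocyte markers were higher in 4 of 6 cases at D5 and 2 of 4 at D0, and classical monocyte markers in 2 of 3 and 2 of 2. Macrophage markers were lower in 3 of 4 and 1 of 2. Ly6c2 stands in both the classical monocyte and the preDC marker lists. The part of these markers in the receptor values was not tested.

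**Figure D3:**
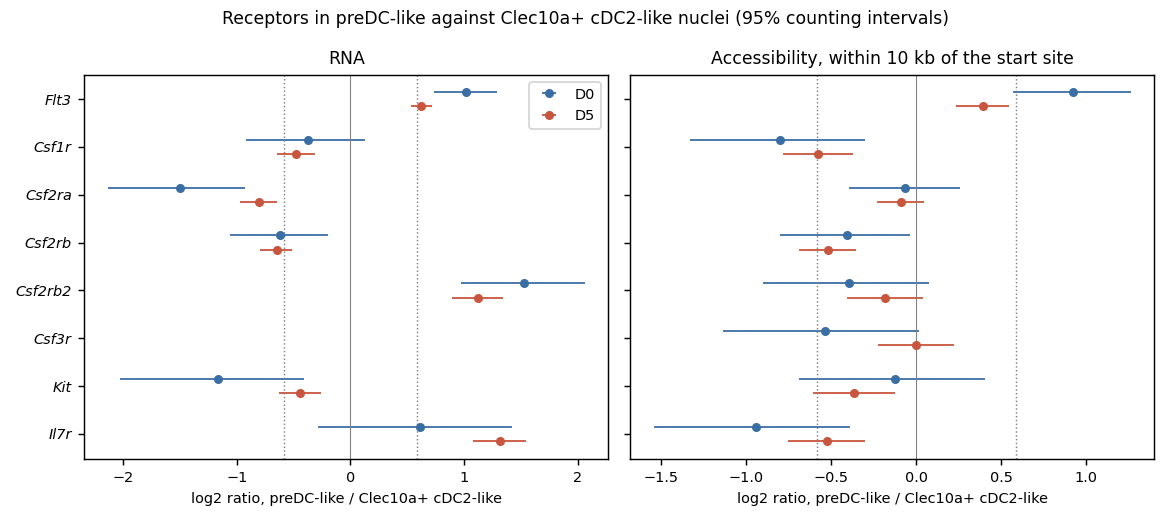
Log2 ratio of preDC-like over Clec10a+ cDC2-like nuclei for the 8 receptors (rows), for RNA on the left and for accessibility within 10 kb of the start site on the right; blue is D0, red is D5, bars are 95% counting intervals and dotted lines mark 1.5-fold. In RNA Flt3, Csf2rb2 and Il7r lie to the right and Csf2ra and Csf2rb to the left, whereas in accessibility Il7r lies to the left at -0.94 and -0.53.

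Accessibility of the start site windows was measured as fragments per 1000000 fragments in shared regions of the class (FPM). The Flt3 window was most open in preDC-like (109 and 104) and pDC-like nuclei (94.4 and 102), then in Ccr7+ DC-like (74.9 and 82.9), cDC1-like (62.1 and 71.1) and cDC2-like nuclei (60.0 and 79.1). It was little open in NK cell-like (10.3 and 12.8) and T cell-like nuclei (5.07 and 12.3). The start of the non-coding gene Gm26597 also lies in this window, the only other gene start within 10 kb of any member. Between the days 0 of 8 windows passed 1.5-fold in cDC2-like nuclei, where 0.603% of 20235 gene windows were higher and 5.6% lower, and Flt3 showed the largest ratio of the 8 (log2 0.40, 0.25–0.55), in the same direction as its RNA.

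The Csf1r window was most open in macrophage-like (110.4 and 91.3) and nonclassical monocyte-like nuclei (94.9 and 79.9) and closed in NK cell-like nuclei (5.11 and 5.04). The Csf2rb window was open at 66.4 to 104 in all dendritic, macrophage-like and monocyte-like classes and at 6.30 and 6.34 in NK cell-like nuclei. The Kit window was most open in Ccr7+ DC-like (51.2 and 58.9) and cDC1-like nuclei (47.8 and 47.9). In NK cell-like nuclei it was 20.2 and 34.4, which made Kit the only 1 of 5 windows with 50 fragments past 1.5-fold at D5 (log2 0.77, 0.39–1.15), where 1.82% of windows were higher and 2.83% lower, and Il7r stood at 0.54 (0.20–0.89). Kit in NK cell-like nuclei was thus higher at D5 in both layers, with the exception given above for the RNA of nuclei with at least 2000 UMIs.

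At Csf2ra the window looked open everywhere, from 88.0 to 178 in every class when the 6 neutrophil-like nuclei of D0 are left aside. It held a pair of start site regions that behaved differently. The region around the downstream start (chr19:61226835-61227729) was equally open in NK cell-like (84.4 and 84.5) and cDC2-like nuclei (79.1 and 85.7). The region at the upstream start (chr19:61228174-61228942), which holds the promoter window with GAGGAAG 14 bases before the start, had 31.6 and 37.8 in cDC2-like and 43.1 and 45.1 in macrophage-like nuclei, but 5.11 and 5.18 in NK cell-like and 6.97 and 6.33 in pDC-like nuclei. In pDC-like nuclei the low Csf2ra RNA thus went with a closed upstream and an open downstream region.

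Csf3r showed open chromatin where RNA was nearly absent. Its window held 57.6 and 56.0 FPM in cDC2-like, 58.7 and 60.2 in cDC1-like and 45.6 and 42.2 in pDC-like nuclei, close to the macrophage-like values of 65.7 and 60.9. In cDC2-like nuclei most of it lay in a region 5.4 kb upstream of the start (chr4:126018682-126019606), with 31.9 and 32.9, against 1.62 and 1.58 in NK cell-like nuclei. At the start site region itself, which holds the Csf3r sequence shown above, cDC2-like nuclei had 8.16 and 6.89 and macrophage-like nuclei 19.8 and 10.6. The 91 neutrophil-like nuclei, the class with the highest Csf3r RNA, had 14.1 in the window, a value that rests on 2.5 fragments and whose interval (2.35–45.2) reached the pDC-like values. Il7r also parted from its RNA: pDC-like nuclei, highest in RNA, held 38.3 and 41.0, less than Clec10a+ cDC2-like nuclei with 61.9 and 58.6. At the Il7r start site region itself the values were 15.7 and 21.1 in pDC-like and 16.7 and 17.5 in Clec10a+ cDC2-like nuclei.

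Windows of preDC-like and Clec10a+ cDC2-like nuclei were compared next. At D5 0 of 8 windows passed 1.5-fold, where 10.6% of 19430 windows were higher and 4.78% lower. Flt3 stood at 0.39 on the log2 scale (0.23–0.54), Csf1r at -0.58 (-0.78 to -0.37), Il7r at -0.53 (-0.75 to -0.30) and Csf2rb at -0.52 (-0.69 to -0.36). Under TMM scaling 3 windows were past the line at D5, all lower, and 6 at D0, of which 5 were lower. The share of all windows was not taken under that scaling, so these counts have no share to be read against. At D0 the Flt3 window was 1.89-fold higher (0.92, 0.57–1.26), and those of Il7r (-0.94, -1.54 to -0.39) and Csf1r (-0.80, -1.33 to -0.30) were past the line on the lower side, where 8.4% and 10.5% of windows were. Flt3, Kit, Csf1r, Csf2ra and Csf2rb had the same sign in both layers on both days, while Il7r and Csf2rb2 were higher in RNA with negative ratios in accessibility. In accessibility the intervals of the compared levels overlapped for Csf2ra and Csf2rb2 on both days and for Kit and Csf2rb at D0. In RNA they overlapped at D0 for Csf1r and Il7r. In these cases no agreement or disagreement of the layers beyond counting error is claimed. Without the subcluster led by Ccl22, Csf1r passed at D5 (-0.59), Kit at D5 stood at 0.45 in RNA and -0.30 in accessibility, and at D0 the windows of Csf2rb2 (0.12) and Kit (0.07) changed sign.

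Single regions passed the line more often than the windows at D5, among the members and among all shared regions alike. Of the 41 regions, 31 held 50 fragments at D5, and 3 were higher and 10 lower in preDC-like than in Clec10a+ cDC2-like nuclei, where 19.4% and 17.0% of 56013 shared regions were. Among these, the largest difference on the higher side was 7.2 kb after the Csf2rb start (chr15:78332795-78333677), with 15.6 against 4.10 FPM (log2 1.92, 1.39–2.48), and the region was most open in pDC-like nuclei (26.5). A region 5.8 kb after the Csf2rb2 start (chr15:78299445-78300282) had 19.4 against 7.83 (1.30, 0.88–1.73) and 24.4 in pDC-like nuclei. At D0 they were at 1.67 (0.66–2.65; 16.0 and 23.5 fragments, too few to count) and 1.47 (0.57–2.34). Since the genes are near-identical copies, reads of either copy could be counted at both places, which was not tested. Regions 4.8 kb after the Csf2rb start (-2.05, -2.85 to -1.33) and 6.9 kb after the Csf2rb2 start (-1.36, -1.85 to -0.91) were lower, so the windows of both genes held regions that differed in opposite directions. Single regions were not compared without the subcluster led by Ccl22.

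At Il7r a region 1.5 kb after the start (chr15:9527824-9528766) had 13.5 against 29.7 FPM in preDC-like nuclei at D5 (log2 -1.14, -1.52 to -0.77) and was also lower at D0 (-1.54, -2.63 to -0.62), whereas the region at the Il7r start did not differ detectably (0.02, -0.35 to 0.38). The pDC-like value 1.5 kb after the start was 14.5, near that of preDC-like nuclei. Csf2rb2 had a region 9.5 kb upstream (chr15:78314784-78315651) with 10.9 at D5 in pDC-like nuclei, 1.18 (6.50 fragments) in preDC-like and 0.793 in cDC2-like nuclei. At Flt3 a region 9.5 kb upstream (chr5:147409678-147410382) held 9.02 and 8.68 in pDC-like, 4.92 and 4.79 in preDC-like and 1.62 and 0.985 in cDC2-like nuclei. The preDC-like value rested on 4.50 fragments at D0 and 26.5 at D5. At D0 its interval (1.48–12.0) overlapped those of both neighbours, and at D5 (3.14–6.997) it lay above that of cDC2-like nuclei (0.584–1.56) and overlapped at its edge that of pDC-like nuclei (6.64–11.1).

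**Figure D4:**
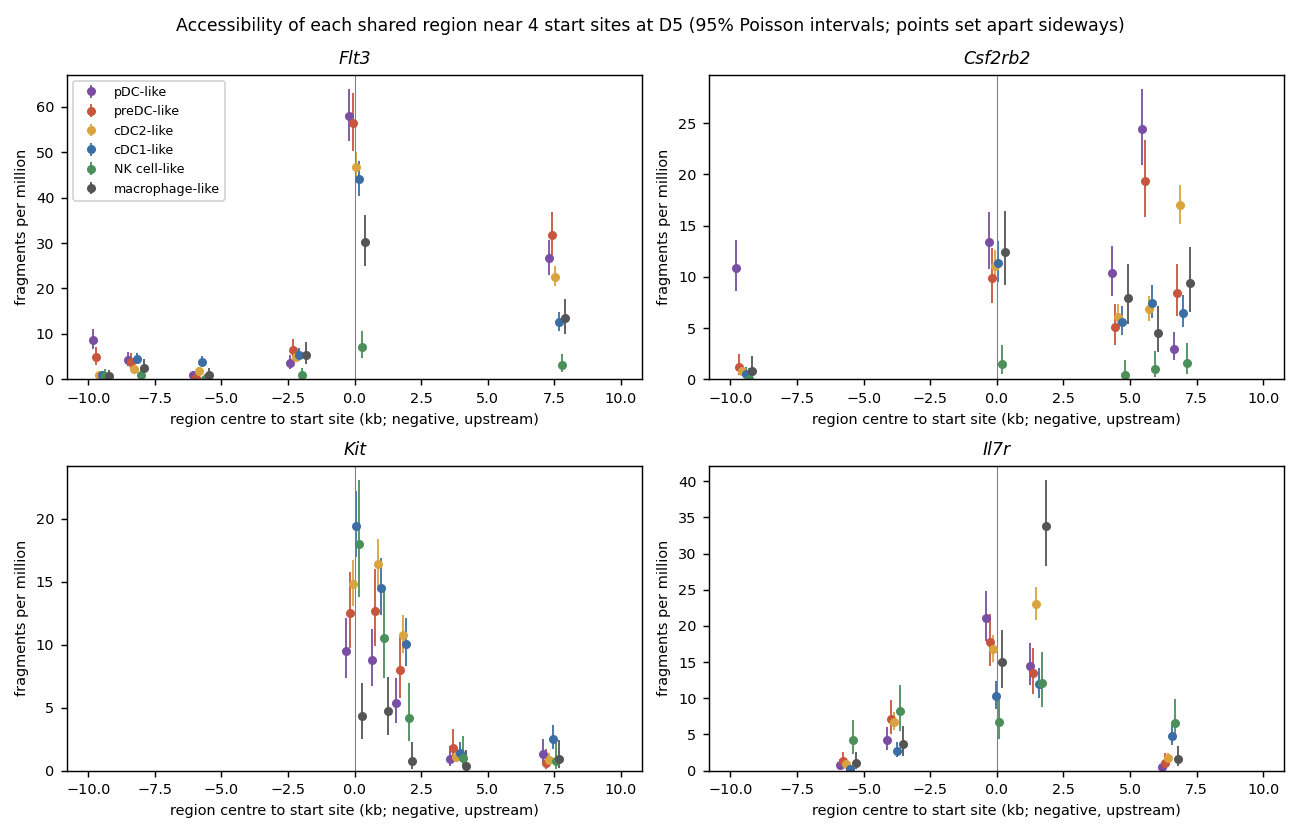
Accessibility at D5 of each shared region near the start sites of Flt3, Csf2rb2, Kit and Il7r (y axis, FPM) against the distance of the region's centre from the start site (x axis, kb, negative upstream), coloured by class with 95% Poisson intervals. The Csf2rb2 region 9.5 kb upstream is most open in pDC-like nuclei (10.9), and the Il7r region 1.5 kb after the start is lower in preDC-like (13.5) than in macrophage-like nuclei (33.8).

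RNA and accessibility of a receptor were set side by side over 19 points, the classes of both days. The points of a day share a library and both layers of a class share nuclei, so the coefficients describe these nuclei and carry no p. Pearson's r was 0.857 for Flt3 (Spearman's rho 0.870), 0.819 for Kit (0.883), 0.749 for Csf1r (0.883), 0.721 for Csf2ra (0.788) and 0.829 for Csf2rb2 (0.911). For Csf2rb r was 0.925 with a rho of 0.60. Among the dendritic classes the Flt3 values did not keep 1 order in both layers. Ccr7+ DC-like nuclei held the most RNA (498 and 479.8 CPM) at 74.9 and 82.9 FPM. The pDC-like nuclei held 277 and 235 CPM at 94.4 and 102 FPM. Pearson's r was low for Csf3r (0.195, rho 0.612) and Il7r (0.303, rho 0.30). The Csf3r window was open in dendritic classes with almost no RNA. Il7r RNA was instead highest in pDC-like nuclei, whose window was not the most open. For Csf3r the point with the highest RNA is the neutrophil-like one of 2.5 fragments.

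**Figure D5:**
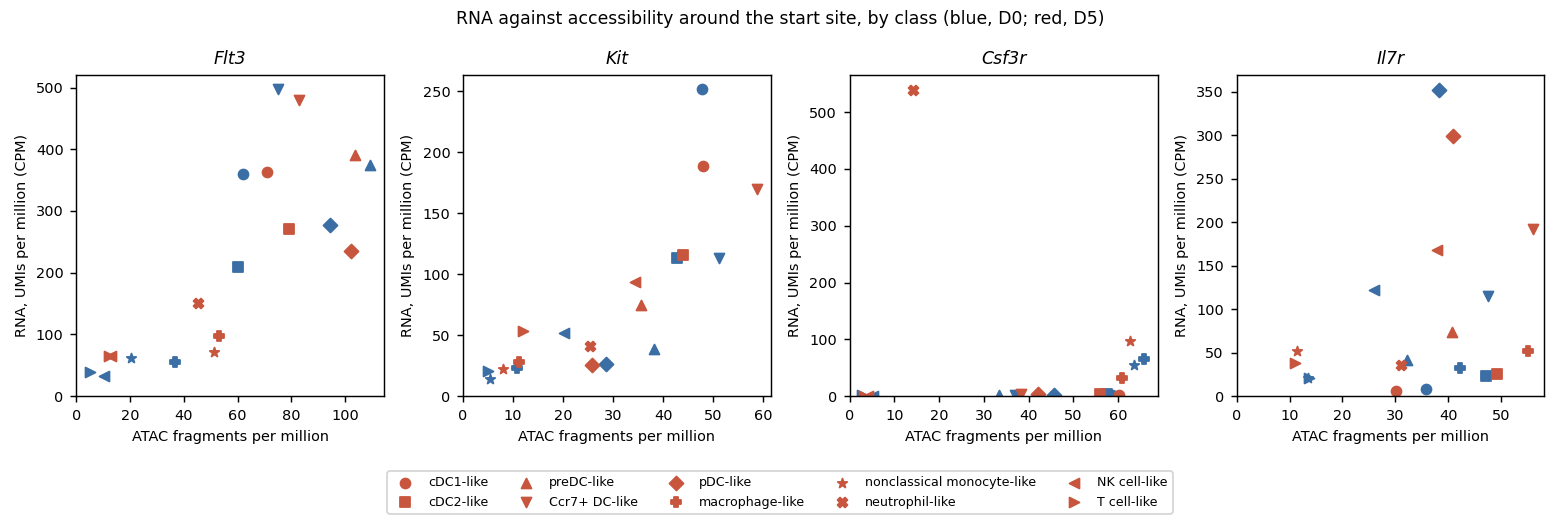
RNA level (y axis, CPM) against accessibility within 10 kb of the start site (x axis, FPM) for Flt3, Kit, Csf3r and Il7r, each point a class (marker shape) on a day (blue D0, red D5). Over all classes r is 0.857 for Flt3 and 0.819 for Kit, but Ccr7+ DC-like nuclei hold more Flt3 RNA than the more open pDC-like nuclei. Csf3r has a single neutrophil-like point far above the rest (539 CPM at 14.1 FPM, from 2.5 fragments), and Il7r shows pDC-like points above classes of equal accessibility.

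The genes that act with these receptors were described from a list of 48: ligands, partner chains, kinases, adaptors, signal transducers and feedback genes. In cDC2-like nuclei at D5, 0 of the 38 with 50 UMIs were higher and 6 lower, with a median of -0.13, where 5.32% and 17.0% of all genes were. Among the 6 were Pik3r1 (log2 -0.95), a regulatory subunit of PI3-kinase, the ubiquitin ligase Cblb (-0.82), the feedback inhibitor Socs1 (-0.81), Flt3l (-0.68) and the kinase Syk (-0.66). In cDC1-like nuclei 2 of 38 were higher and 5 lower (all genes 3.39% and 18.8%). Socs3 (0.92) and Cish (0.69), feedback inhibitors induced by cytokine signalling, were the higher ones, and Flt3l (-1.18), Socs1 (-0.92), Bcl2 (-0.70) and Syk (-0.66) led the lower ones. Flt3l rested on 33 and 36 UMIs in cDC1-like and 43 and 111 in cDC2-like nuclei. It was highest in lymphocyte-like nuclei, whose markers were lower at D5 in both classes as given above, and their part in the Flt3l values was not tested. In pDC-like nuclei 0 of 35 passed in either direction (all genes 4.97% and 8.25%). In Ccr7+ DC-like nuclei 2 of 32 were higher and 3 lower (all genes 10.9% and 12.7%), led by Crlf2 (1.43, 0.78–2.15; 31.3 and 84.5 CPM), the chain that joins Il7r in the receptor for thymic stromal lymphopoietin. In preDC-like nuclei 2 of 35 were higher, Crlf2 among them (0.93, 0.46–1.43; 101 and 191 CPM), and 5 lower (all genes 11.3% and 18.1%). Crlf2 and Il7r were thus both higher at D5 in Ccr7+ DC-like and in preDC-like nuclei.

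Between preDC-like and Clec10a+ cDC2-like nuclei at D5, 7 of 38 genes of the list were higher and 5 lower, with a median of 0.24, where 28.8% and 8.38% of all genes were. These lists were not compared without the subcluster led by Ccl22. Among the largest differences were those of Pik3r5 (log2 -1.59), Cish (-1.58), Socs3 (-1.43), Pik3r1 (-1.12) and Stat5b (1.04), a transducer used by GM-CSF and interleukin-7. Of 13 transcription factor genes known to act on these receptors or lineages, 5 of 11 were higher and 3 lower in the same comparison, to be read against the same shares, among them Ikzf1 (1.57), Irf8 (1.41) and Runx1 (1.12) on the higher side and Id2 (-1.04) and Cebpb (-0.90) on the lower. pDC markers were also higher in 9 of 11 cases in this comparison, and their part in these values was not tested. Between the days in preDC-like nuclei 0 of 11 were higher and 3 lower, with Irf8 lower by the widest margin (log2 -1.84, with 950 and 265 CPM). Of the pDC markers 10 of 11 were also lower there and 1 higher, and of the cDC1 markers 2 of 5 were lower. Their part in the Irf8 value was not tested. The other classes had 0 higher and 3 lower of 11 (cDC2-like; Irf8 -0.80, Irf4 -0.70, Zeb2 -0.70), 1 and 2 of 11 (cDC1-like), 1 and 1 of 11 (pDC-like; Spi1 0.78, Cebpa -0.83) and 0 and 1 of 10 (Ccr7+ DC-like; Irf8 -1.22), each beside the share of all genes given above for its class. The part in these values of the marker shifts given above for each class was not tested.

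Of the ligands, 3 are described, singled out after their values were seen. Csf2, which encodes GM-CSF, was read in NK cell-like nuclei at 34.8 CPM (69 UMIs) at D0 and 259 CPM (565 UMIs) at D5, and in T cell-like nuclei at 51.6 and 28.8 CPM. It stood at 1.17 to 6.61 CPM in the dendritic classes that had more than 3 UMIs. The share of NK cell-like nuclei with a Csf2 UMI and the part of free RNA in the Csf2 values were not tested. Flt3l was highest in NK cell-like (38.3 and 25.7) and T cell-like nuclei (24.8 and 46.1), and Csf1 in the neutrophil-like nuclei of D5 (290.4 CPM, 56 UMIs).

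For each receptor, the 3 genes with the most similar RNA pattern over the same 19 points were taken by Pearson's r of log2(CPM + 10), among genes reaching 50 CPM in some class. Flt3 was nearest to Gpr183 (0.918), Dpp4 (0.908) and Paxbp1 (0.906), and Kit to Rala (0.837), Zbtb46 (0.823), a factor known from conventional dendritic cells, and Tmpo (0.820). Csf1r was nearest to C130050O18Rik (0.967), Emilin2 (0.966) and Cd300c2 (0.953), Csf2ra to App (0.949), Fem1c (0.941) and Atf3 (0.938), and Csf2rb to Slc6a6 (0.931), Ifngr2 (0.923) and Prcp (0.917). Csf2rb2 went with Kynu (0.924), Slc49a4 (0.898) and Ptprs (0.897), Csf3r with C5ar1 (0.967), Sgms2 (0.961) and Clec4d (0.952), and Il7r with Gramd1b (0.799), Gm37529 (0.788) and Rcsd1 (0.769).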

How the data were processed

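Nuclei of sorted liver cells were measured in 2 libraries, D0 and D5, each deposited as an RNA and an ATAC sample. Raw count matrices of 2 kinds were deposited. Per the file headers, the authors made the RNA counts (UMIs per gene and barcode) with Cell Ranger 6.0.2, and per the submitters' processing notes the joint matrices, which add counts per peak, with Cell Ranger ARC 2.0.2 on mm10. No file had been normalised. The D5 joint matrix was joined to its RNA matrix by identical gene counts (27873 of 27873 barcodes). A recovery of 10000 nuclei was targeted, and 16260 and 27873 barcodes were called, 591 of which occur in both libraries.

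A nucleus needed 1000 UMIs or more, of which mitochondrial genes held no more than 10%. Simulated-doublet scores (scanpy 1.11.5) of 0.2 or more removed 3301 and 6821 nuclei (23.1% and 25.6%), a threshold set after the scores were seen. RNA was clustered (1981 variable genes without the receptor, pathway and regulator genes, 30 components, 15 neighbours, Leiden resolution 1.0), and a cluster took a class name if 3 or more of that class's markers were raised 2-fold and the share raised of any second class stayed under 0.6 times its own, or 3 or more of its markers, and more than 2 times as many as of any other class, stood among the 10 leading genes. No other class could have more of the leading genes. Clusters of 694, 218 and 326 nuclei with raised markers of 2 classes stayed unnamed by this rule. States of cDC2 needed 1.25-fold. The thresholds were set with the clusters in view. Peak counts were divided by 2 to give fragments, since 70.4% and 75.1% of entries equalled 2. Peaks that overlapped between libraries were merged into shared regions.

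Sums per class were scaled to counts per 1000000 (CPM) of the class's UMIs or shared-region fragments. Levels carry exact Poisson 95% intervals, shares exact binomial ones and ratios exact conditional binomial ones. PCR and nuclei of 1 library are not independent, so the intervals cover counting error only. A gene counted as higher or lower past 1.5-fold with 50 UMIs or fragments. TMM factors came from edgeR 4.0.16, used for scaling alone. Shares of all genes, windows and regions past the fold were taken in the main setting only. The ratio and its interval were tested on simulated data. Promoter letters came from the RefSeq table of GRCm38.p6.

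Named genes were all 8 receptors, the 3 most similar genes of each, and up to 6 genes of the pathway list per comparison with the largest ratio past 1.5-fold. Some genes that this rule selects are not reported here. The receptors and gene lists were chosen with earlier results of these data known.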

Additional observations from a re-analysis of the deposited data

How the results depend on the processing

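Each comparison given above with counts of receptors was recomputed under the alternatives, those of preDC-like nuclei between the days and against pDC-like nuclei, of macrophage-like, NK cell-like, T cell-like and nonclassical monocyte-like nuclei, and at D0 of preDC-like nuclei with the Clec10a+ states having been added after the data were seen. Of the counts of receptors past 1.5-fold, 90 alternative values stayed within 1.5 times the main count and 48 moved. Of the values of single receptors, 737 stayed, 87 moved and 2 past 1.5-fold changed direction, both with nuclei of at least 2000 UMIs: Csf2rb2 in preDC-like nuclei between the days (0.10) and Il7r at D0 between preDC-like nuclei and those states (-0.40). The signs of some smaller differences also turned.

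In RNA of cDC2-like nuclei, D5 against D0, the count was 0 and became 1 with TMM scaling. In cDC1-like nuclei it was 0 and became 1 with TMM scaling, with nuclei thinned to 1000 UMIs and with no minimum number of UMIs per gene. In pDC-like nuclei it was 1 and became 0 with nuclei of at least 2000 UMIs, after thinning, after subtraction of the expected free RNA and at 2-fold. In Ccr7+ DC-like nuclei it was 1 and became 2 with TMM scaling, with doublets kept, with at least 2000 UMIs, after thinning and with no minimum, 3 after subtraction of free RNA, and 0 at 2-fold. In preDC-like and in macrophage-like nuclei it was 3 and became 0 at 2-fold. In NK cell-like nuclei it was 3 and became 5 with doublets kept, 0 with at least 2000 UMIs and 1 at 2-fold. In T cell-like nuclei it was 2 and became 0 with at least 2000 UMIs, after thinning and after subtraction of free RNA, 1 at 2-fold and 6 with no minimum. In nonclassical monocyte-like nuclei it was 1 and became 0 with TMM scaling, with at least 2000 UMIs, after thinning, at Leiden resolution 0.6, after subtraction of free RNA and at 2-fold, and 5 with no minimum. Between preDC-like and Clec10a+ cDC2-like nuclei it was 5 at D5 and became 2 at 2-fold, and was 6 at D0 and became 2 with at least 2000 UMIs and 3 without the subcluster led by Ccl22. Between preDC-like and pDC-like nuclei at D0 it was 5 and became 3 with at least 2000 UMIs and 2 at 2-fold.

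In ATAC the count between preDC-like and Clec10a+ cDC2-like nuclei was 0 at D5 and became 3 with TMM scaling and with windows of 2 kb, and 1 at Leiden resolution 0.6, with at least 1000 peak fragments per nucleus and without the subcluster led by Ccl22. At D0 it was 3 and became 6 with TMM scaling and 0 at 2-fold. In NK cell-like nuclei between the days it was 1 and became 2 with TMM scaling and with at least 1000 peak fragments, 5 with doublets kept and 0 at 2-fold. The causes were not tested. The ATAC count of cDC2-like nuclei kept its value of 0 throughout.

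After the data were seen, preDC-like nuclei were also counted among the cDC2-like nuclei, and a cDC2-like subcluster led by C1qa was left out. Both gave 0 receptors past 1.5-fold in cDC2-like nuclei, as before. No paired analysis was possible because each day is 1 library, and no library could be left out. The 6 neutrophil-like nuclei of D0 and the 15 Kit and 16 Il7r UMIs of preDC-like nuclei at D0 limit what those values can show.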
